A study of Rattus norvegicus with 12 samples.

Results

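The let-7, miR-98, miR-99, miR-100 and miR-125 microRNAs were followed in hippocampal neuron cultures treated for 48 h with picrotoxin or vehicle. Network activity itself is not among the values used here. Members were all mature microRNAs in the small RNA count tables whose names start with let-7, or that carry the names miR-98, miR-99, miR-100 or miR-125 with any letter, from either arm of the hairpin. This gave 30 of the 548 microRNAs listed: 17 named let-7, 2 miR-98, 4 miR-99, 2 miR-100 and 5 miR-125. All 30 were listed in each of the 6 small RNA libraries, 13 from the 5p arm and 17 from the 3p arm. let-7g was not analysed here.

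The cultures were neuron-enriched primary cells from the hippocampus of Sprague-Dawley rat embryos (E18). At 18 days in vitro (DIV) they received vehicle (control) or picrotoxin, and RNA was taken 48 h later, at 20 DIV. Picrotoxin closes the pore of the inhibitory GABA-A receptor, which leaves excitatory activity less restrained. Each arm had 3 biological replicates, labelled 3, 10 and 20 in both arms and called cultures here, and small RNA and polyA RNA came from the same preparations. What the numbers mark is not given, and libraries of the same number were taken as pairs from the data.

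These microRNAs are ancient and mostly sit together in the genome, often as a let-7 gene beside a miR-99 or miR-100 gene and a miR-125 gene. Mature let-7 rises as cells leave the stem or progenitor state. The RNA-binding proteins Lin28a and Lin28b block its processing, and let-7 in turn represses Lin28 and growth genes such as Hmga2 and Myc. miR-125 is the vertebrate relative of worm lin-4, also represses Lin28, and in neurons acts on messages of synaptic proteins such as the NMDA receptor subunit Grin2a and the scaffold Dlg4. miR-99 and miR-100 are known to act on the growth kinase Mtor. A microRNA pairs with its targets mainly through its seed, bases 2 to 8 counted from the 5′ end.

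The sequences below are shown because the seed divides the 5p members into groups that could act on the same targets, and because many members differ by few bases, which matters for how reads are assigned. Of the 30 members, 28 matched a mature sequence of RefSeq (build GRCr8) by name, with 14 different seeds among them. miR-99a-5p and let-7c-1-3p are given by name only. The seed is in capitals. The first group, of 8 members, shares the seed GAGGUAG.
let-7a-5p: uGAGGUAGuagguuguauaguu
let-7b-5p: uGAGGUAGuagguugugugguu
let-7c-5p: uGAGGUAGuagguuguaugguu
let-7d-5p: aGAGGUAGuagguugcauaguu
let-7e-5p: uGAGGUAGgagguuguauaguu
let-7f-5p: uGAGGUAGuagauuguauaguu
let-7i-5p: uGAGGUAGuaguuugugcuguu
miR-98-5p: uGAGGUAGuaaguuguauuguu

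Against let-7a-5p, with its base first and positions counted from 1 at the 5′ end, let-7c-5p differed by A19G, let-7e-5p by U9G and let-7f-5p by G12A, so that each was 1 base away. let-7b-5p differed by A17G and A19G, let-7d-5p by U1A and U16C, and miR-98-5p by G11A and A19U. let-7i-5p was the farthest from let-7a-5p, with G12U, A17G, U18C and A19U. None of these changes lies in the seed. The sources used here do not give how the deposited counts assigned reads with an error, or reads shorter than the differing base, so the split between such near-identical members is uncertain.

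The other 5p groups follow, with the seeds ACCCGUA (miR-99 and miR-100) and CCCUGAG (miR-125).
miR-100-5p: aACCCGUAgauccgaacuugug
miR-99b-5p: cACCCGUAgaaccgaccuugcg
miR-125b-5p: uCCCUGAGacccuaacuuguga
miR-125a-5p: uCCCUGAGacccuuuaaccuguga

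The 3p members are the strands that are usually discarded, and those the results turn on are shown next. Among them, 5 let-7 and miR-98 strands share the seed UAUACAA, and miR-99a-3p and miR-99b-3p share AAGCUCG.
let-7i-3p: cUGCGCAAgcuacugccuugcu
let-7d-3p: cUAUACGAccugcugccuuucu
let-7a-1-3p: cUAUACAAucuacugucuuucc
let-7c-2-3p: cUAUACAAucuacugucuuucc
miR-125b-1-3p: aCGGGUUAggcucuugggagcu
miR-125b-2-3p: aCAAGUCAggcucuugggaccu
miR-99a-3p: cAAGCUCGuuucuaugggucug
miR-99b-3p: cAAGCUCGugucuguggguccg

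let-7a-1-3p and let-7c-2-3p have the same sequence and had the same count in each of the 6 libraries. They cannot be told apart, and the 30 names stand for 29 different sets of counts. By contrast, the mature strands let-7a-5p, let-7c-5p and let-7f-5p are each made from more than 1 gene and have 1 row each.

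In GRCr8, most members lie in 6 clusters. miR-99b, let-7e and miR-125a lie within 679 bases on the plus strand of chromosome 1 (67350070 to 67350748), inside the gene Spaca6. miR-99a, let-7c-1 and miR-125b-2 span 45208 bases of chromosome 11 (29687441 to 29732648) inside the long noncoding RNA gene LOC103693508. miR-100, let-7a-2 and miR-125b-1 span 51805 bases of chromosome 8 (50798307 to 50850111) inside Mir100hgl and Lnc215. The remaining clusters hold let-7 and miR-98 alone: let-7a-1, let-7f-1 and let-7d on chromosome 17 (16320145 to 16322348, in LOC120097935), let-7f-2 and miR-98 on X (24460052 to 24460741, in Huwe1), and let-7c-2 with let-7b on chromosome 7 (118683636 to 118684119). let-7i lies alone on the minus strand of chromosome 7, its 5p strand at 60527935 to 60527956 and its 3p strand at 60527879 to 60527900, within LOC134479799. The reference table gives gene bounds without exons, so exon or intron is not stated. Genes around members were found by position, without comparing strands.

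The small RNA libraries held 7730222 to 10051499 counts each, so the precision of abundant members was set by the spread between cultures, not by counting. Levels are in CPM, each library being scaled to its TMM-adjusted size, and ± is the SD over 3 cultures. Control culture 3 stood apart: it had the highest TMM factor (1.14, against 0.927 to 1.02 in the others), and its miR-128-3p, an abundant neuronal microRNA, was at 83380 CPM against 139557 and 167210 in the other control cultures. Picrotoxin culture 3 had the same lean within its arm, with the highest TMM factor (1.02) and miR-128-3p at 121332 CPM against 150654 and 165490. Neuronal microRNAs were abundant in every library (miR-124-3p 14856 to 20183 CPM, miR-9a-5p 166849 to 190918 CPM), while the microglial miR-142-3p, miR-142-5p and miR-223-3p were at 0 to 0.457 CPM. The polyA RNA likewise held neuronal messages in abundance (Snap25 at 18902 ± 922 scaled counts in controls), and the summed level of 4 microglial messages was 0 to 1.06 scaled counts in controls and 1.05 to 4.86 with picrotoxin, with Itgam at 0 throughout. Of 6 astrocyte messages 5 were tested and 0 passed. Their summed level was 4056 to 5786 in controls and 3340 to 5165 with picrotoxin, and its part in the results was not tested. In such bulk samples, fewer cells of a type and less RNA per cell cannot be told apart.

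Together the 30 members took 22.3% ± 0.34 of all microRNA counts in control cultures and 22.7% ± 0.63 with picrotoxin (SD, n = 3). In control cultures 3, 10 and 20 the share was 22.0%, 22.7% and 22.3%, and in the picrotoxin cultures of the same numbers it was 23.4%, 22.4% and 22.2%. The ranges overlapped. let-7 and miR-98 contributed 10.2% ± 0.19 in controls and 10.5% ± 0.36 with picrotoxin, miR-99 and miR-100 6.21% ± 0.37 and 6.57% ± 0.21, and miR-125 5.86% ± 0.60 and 5.58% ± 0.32. The 17 strands of the 3p arm made up 0.241% of the counts in controls and 0.239% with picrotoxin, so that nearly all of the signal came from the 5p arm. In these sums, the pair of identical rows is counted under both names. The shares are of raw counts, without the TMM factors, and can differ on the CPM scale. No test was made of a sum over members.

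**Figure D1:**
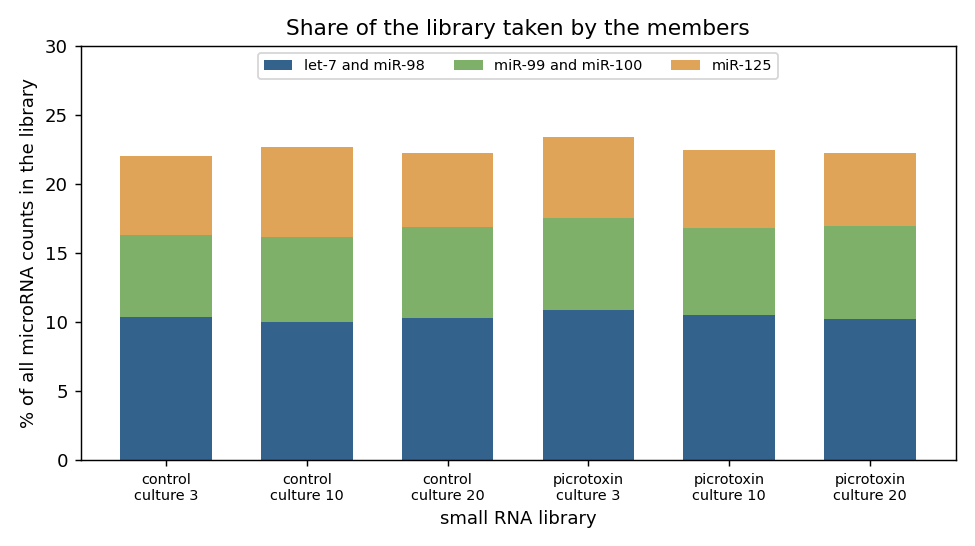
Percentage of all microRNA counts taken by let-7 and miR-98, miR-99 and miR-100, and miR-125 in each small RNA library, stacked. The total lies between 22.0% and 23.4% in all 6 libraries, and the control and picrotoxin bars overlap in height.

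The most abundant member was miR-125b-5p, the third most abundant microRNA in control cultures. It was at 42913, 56208 and 49099 CPM in control cultures 3, 10 and 20 and at 49412, 49575 and 49096 CPM with picrotoxin. The picrotoxin values lay within the range of the controls, close to one another. The log2 fold change was -0.00 (95% interval -0.23 to 0.22, adjusted p = 0.993, edgeR quasi-likelihood test with Benjamini-Hochberg adjustment over 437 microRNAs, n = 3 per arm). Its relative miR-125a-5p, with the same seed, was at 6362, 7345 and 6739 CPM in controls and at 7311, 6708 and 6565 CPM with picrotoxin, again overlapping. miR-125b-5p made up 87.8% of the 5p counts of this family in both arms.

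Among the members named miR-99 or miR-100, miR-99a-5p was the most abundant, at 36695, 41663 and 50800 CPM in control cultures 3, 10 and 20 and at 47430, 46299 and 53720 CPM with picrotoxin. It was higher with picrotoxin in each of the 3 cultures, but the arms overlapped, because control culture 20 was above picrotoxin cultures 3 and 10. The log2 fold change was 0.19 (SE 0.12, 95% interval -0.07 to 0.45, adjusted p = 0.647 in edgeR). With culture as a block its unadjusted p was 0.0180, and the adjusted p of 0.174 did not pass. The omission of control culture 3 gave a log2 fold change of 0.08, that of picrotoxin culture 20 gave 0.12, and that of control culture 20 gave 0.33 (adjusted p = 0.146 in edgeR).

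miR-100-5p was at 10366, 13323 and 13951 CPM in controls and at 11868, 13300 and 13794 CPM with picrotoxin. miR-99b-5p was at 4672, 5313 and 5227 CPM in controls and at 5188, 5144 and 5349 CPM with picrotoxin. For both, control culture 3 was the lowest of the 6 libraries and the arms overlapped. Scaled by library totals alone, control culture 3 stayed the lowest for miR-100-5p but not for miR-99b-5p. The latter was then at 5304 CPM in control culture 3 against 4925 CPM in control culture 20. Within the 5p counts of these members, miR-99a-5p took 70.9% ± 1.75 in controls and 72.9% ± 1.23 with picrotoxin, and miR-100-5p 20.7% ± 1.22 and 19.3% ± 1.11.

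In the let-7 group, let-7f-5p was the most abundant, at 28092, 31202 and 35650 CPM in control cultures 3, 10 and 20 and at 33955, 33395 and 35570 CPM with picrotoxin. The arms overlapped, and the log2 fold change was 0.12 (95% interval -0.10 to 0.33, adjusted p = 0.742 in edgeR). let-7i-5p came next, at 22457, 21429 and 24166 CPM in controls and 24187, 24393 and 25678 CPM with picrotoxin. Here the picrotoxin values all lay above the controls, by a margin of 24187 against 24166, and the difference did not pass the test (log2 fold change 0.13, 95% interval -0.06 to 0.31, adjusted p = 0.647 in edgeR). Scaled by library totals alone, the arms of let-7i-5p overlapped, since control culture 3 was then the highest of the 6.

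let-7d-5p was the only 5p member with an unadjusted p under 0.05 in edgeR. It was at 4580, 5531 and 5719 CPM in control cultures 3, 10 and 20 and at 6352, 6034 and 5940 CPM with picrotoxin. All picrotoxin values were above all controls, and most of the gap came from culture 3: the log2 ratios within cultures 3, 10 and 20 were 0.47, 0.13 and 0.05. The log2 fold change was 0.21 (SE 0.10, 95% interval 0.00 to 0.42), with an unadjusted p of 0.0482 and an adjusted p of 0.490 in edgeR. Without control culture 3 the log2 fold change was 0.11. Scaled by library totals alone, its arms overlapped, with picrotoxin culture 20 at 5507 CPM without the TMM factor against 5591 CPM in control culture 10.

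The other 5p strands of the let-7 seed ranged from let-7c-5p, at 18562 ± 1726 CPM in controls and 19371 ± 1095 CPM with picrotoxin, down to miR-98-5p, at 1552 ± 63 and 1659 ± 183 CPM. Between them lay let-7a-5p (9247 ± 997 and 10327 ± 318 CPM), let-7b-5p (6921 ± 711 and 7194 ± 290 CPM) and let-7e-5p (2950 ± 227 and 3261 ± 196 CPM). The arms of all 5 overlapped. The order of the 8 members of this seed group was the same in both arms. let-7f-5p took 32.0% of the group's counts in controls and 32.1% with picrotoxin, let-7i-5p 23.0% and 23.1%, let-7c-5p 18.8% and 18.1%, let-7a-5p 9.35% and 9.66%, and miR-98-5p 1.58% and 1.55%.

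**Figure D2:**
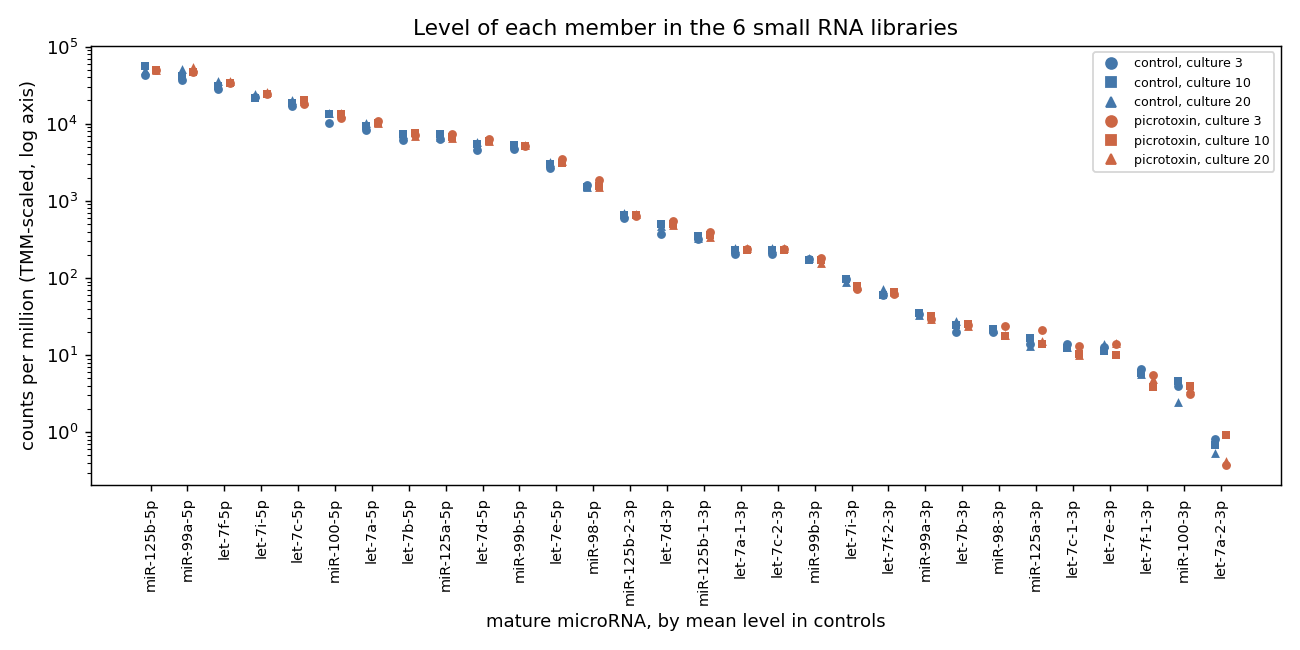
Level of each of the 30 members in the 6 small RNA libraries, in CPM (TMM-scaled) on a log axis, ordered by the mean of the controls; blue marks control and red picrotoxin, with 1 symbol per culture. The 13 members of the 5p arm lie above 1000 CPM and the 17 of the 3p arm below, and control and picrotoxin values lie close together for nearly every member.

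The 3p arm held the member with the smallest p, let-7i-3p. It was at 98.4, 97.3 and 89.9 CPM in control cultures 3, 10 and 20 and at 72.9, 79.5 and 78.7 CPM with picrotoxin, from 580 to 1079 counts per library. All picrotoxin values lay below all controls, also when scaled by library totals alone. The log2 fold change was -0.31 (SE 0.09, 95% interval -0.51 to -0.10), a level of 0.809 of the control, with an unadjusted p of 0.00699. It did not pass after adjustment (adjusted p = 0.199 in edgeR, 0.0835 with culture as a block).

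The most abundant 3p strands came from miR-125b. miR-125b-2-3p was at 607, 656 and 688 CPM in controls and 645, 661 and 672 CPM with picrotoxin. miR-125b-1-3p was at 320, 354 and 331 CPM in controls and 391, 356 and 342 CPM with picrotoxin. These strands differ in sequence and tell apart the genes on chromosomes 8 and 11 that share the mature miR-125b-5p, and neither passed (adjusted p = 0.742 for miR-125b-1-3p and 0.955 for miR-125b-2-3p in edgeR).

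let-7d-3p was at 371, 504 and 476 CPM in control cultures 3, 10 and 20 and at 556, 504 and 489 CPM with picrotoxin, so that culture 3 alone gave most of the difference, as for its 5p partner. let-7a-1-3p and let-7c-2-3p, the identical rows, were at 204, 229 and 242 CPM in controls and 237, 234 and 245 CPM with picrotoxin. miR-99b-3p was at 178, 170 and 182 CPM in controls and 184, 171 and 155 CPM with picrotoxin. The arms of each overlapped.

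miR-99a-3p was at 33.9, 35.2 and 33.4 CPM in controls and 29.4, 32.6 and 29.2 CPM with picrotoxin, lower in all 3 cultures (log2 fold change -0.17, adjusted p = 0.647 in edgeR). let-7f-1-3p was also lower in all 3, at 5.73 to 6.57 CPM in controls and 3.84 to 5.53 CPM with picrotoxin (log2 fold change -0.35, 95% interval -0.84 to 0.13, adjusted p = 0.647 in edgeR). For both, the arms overlapped when scaled by library totals alone.

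The rarer strands overlapped between the arms. let-7f-2-3p was at 60.2, 59.4 and 72.0 CPM in controls and 61.3, 66.7 and 66.7 CPM with picrotoxin. miR-125a-3p was at 14.0, 16.8 and 13.3 CPM in controls and 21.4, 13.9 and 15.5 CPM with picrotoxin, and let-7e-3p at 12.9, 11.3 and 13.9 against 13.8, 9.93 and 14.4 CPM. miR-100-3p was at 4.01, 4.57 and 2.44 CPM in controls and 3.14, 3.97 and 3.76 CPM with picrotoxin, with a 95% interval of its log2 fold change from -0.66 to 0.62. let-7a-2-3p had 3 to 9 counts in each library and was too low to test. The remaining 3p strands, let-7b-3p, miR-98-3p and let-7c-1-3p, had means of 11.1 to 24.8 CPM in the 2 arms and overlapped between them.

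Of the 29 members tested, 0 passed at an adjusted p under 0.05 in edgeR, where 2 had an unadjusted p under 0.05 (let-7d-5p and let-7i-3p). DESeq2 and limma voom also called 0, each with 2 members at an unadjusted p under 0.05. Across all 437 microRNAs tested in edgeR, 1.14% were called higher and 0% lower, and 9.84% had an unadjusted p under 0.05. With culture as a block, 0 members were called and 3 had an unadjusted p under 0.05, while 2.97% of all microRNAs were called higher, 0.686% lower, and 16.7% had an unadjusted p under 0.05. In a fit with both the block and library totals alone, added after the data were seen, 1 member (let-7i-3p) was called lower and 0 higher, beside 4.81% lower and 2.52% higher among all. The members that did not overlap between arms numbered 2 higher (let-7i-5p and let-7d-5p) and 3 lower (let-7i-3p, miR-99a-3p and let-7f-1-3p), beside 9.38% higher and 8.24% lower among all microRNAs tested. Scaled by library totals alone, 0 members were higher without overlap and 1, let-7i-3p, was lower, beside 3.89% higher and 9.84% lower among all microRNAs tested.

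The intervals set bounds on what these libraries could miss. For the 13 abundant 5p members, the 95% intervals of the log2 fold change ran from -0.23 at the lowest to 0.45 at the highest. The median size of the change, regardless of sign, was 0.10 on the log2 scale over the 29 members and 0.12 over all microRNAs tested. Control cultures varied by a median coefficient of variation of 8.56% over the members and of 11.0% over all. Among the 89 microRNAs of at least 1000 CPM, the median was 7.73%, and over the 13 members in that class it was 10.3%.

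The direction of the 5p strands depended on the scaling and on 1 library. With TMM scaling 12 of 13 had a log2 fold change above 0 (median 0.10), as against 49.2% of all microRNAs tested (median -0.01), but with library totals alone 7 of 13 did (median 0.02), where the median of all moved to -0.09. All 13 lie above 1000 CPM, and with TMM scaling the 89 microRNAs of at least that level, the 13 included, had a median of 0.05. Without control culture 3, 7 of 13 were above 0 (median 0.03). Within culture 3, all 13 were higher with picrotoxin (median log2 ratio 0.20), within culture 10 it was 9 (median 0.07) and within culture 20 it was 7 (median 0.00). Of the 16 tested 3p strands, 9 were above 0 with TMM scaling and 5 with library totals.

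**Figure D3:**
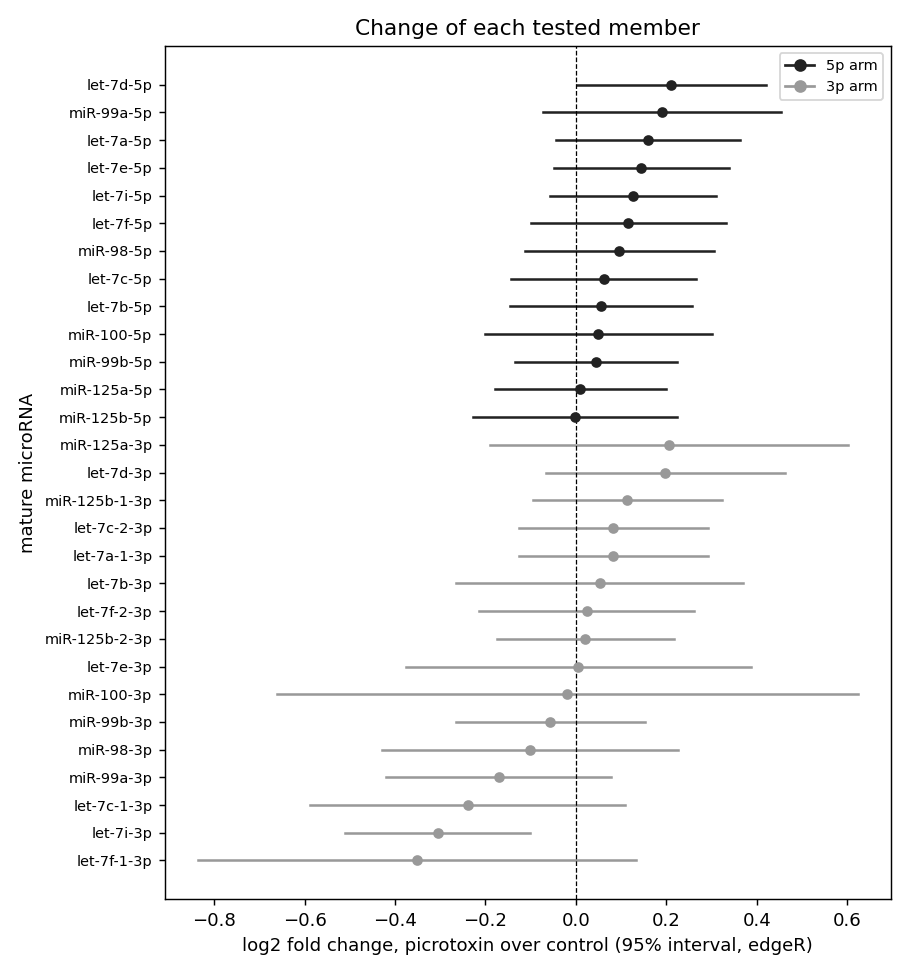
Log2 fold change (picrotoxin over control) of the 29 tested members with 95% intervals from edgeR, 5p strands in black and 3p strands in grey, each ordered by size. The interval of let-7i-3p lies wholly below 0 and that of let-7d-5p starts at 0.00, and the others include 0.

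The ratio of 5p to 3p counts compares the strands of a hairpin within a library and does not depend on scaling. Across the 13 hairpin names, with strands of duplicate genes summed, it ran in controls from 11.8 ± 0.71 for let-7d to 3739 ± 1724 for miR-100 (SD, n = 3), so the 3p strand took a far larger part of some hairpins' counts than of others'. miR-99b (28.7 ± 2.55), let-7a (40.9 ± 0.98) and miR-125b (50.0 ± 4.95) were at the low end. The identical rows let-7a-1-3p and let-7c-2-3p put the same reads into the let-7a and the let-7c ratio. Both ratios and their places in the order are therefore uncertain. let-7f (453 ± 29), miR-125a (467 ± 37) and miR-99a (1262 ± 230) were at the high end. Differences between hairpins may include differences in how well a strand is ligated and sequenced, which was not tested.

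let-7i was the only hairpin whose ratio did not overlap between arms. Its 5p strand had 228, 220 and 269 counts for each 3p count in control cultures 3, 10 and 20, and 332, 307 and 326 with picrotoxin. All picrotoxin cultures lay above all controls. The mean went from 239 ± 26 to 322 ± 13, a factor of 1.35, with factors of 1.45, 1.39 and 1.21 within cultures 3, 10 and 20. Leaving out any 1 library gave factors from 1.29 to 1.43. Among the 82 hairpins of all microRNAs with at least 100 counts on both arms, 4.88% had a ratio that was higher without overlap and 11% one that was lower. For these, strands of duplicate genes were not summed. let-7i met the limit of 100 counts, but some of the 13 hairpin names did not, such as miR-100 with 23 to 44 counts of its 3p strand. With 3 cultures per arm, an exact permutation test of a single ratio cannot go below a two-sided p of 0.1, so no p is given.

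miR-99a had a similar factor, 1.29, from 1082, 1183 and 1521 in controls to 1613, 1422 and 1841 with picrotoxin. It was higher in each culture but overlapped, because control culture 20 was above picrotoxin culture 10. The other ratios overlapped and their means moved by factors from 0.892 (miR-125a) to 1.15 (miR-98). The ratio of let-7d stayed at 11.8 ± 0.71 in controls and 11.9 ± 0.37 with picrotoxin, its strands being higher together in culture 3.

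**Figure D4:**
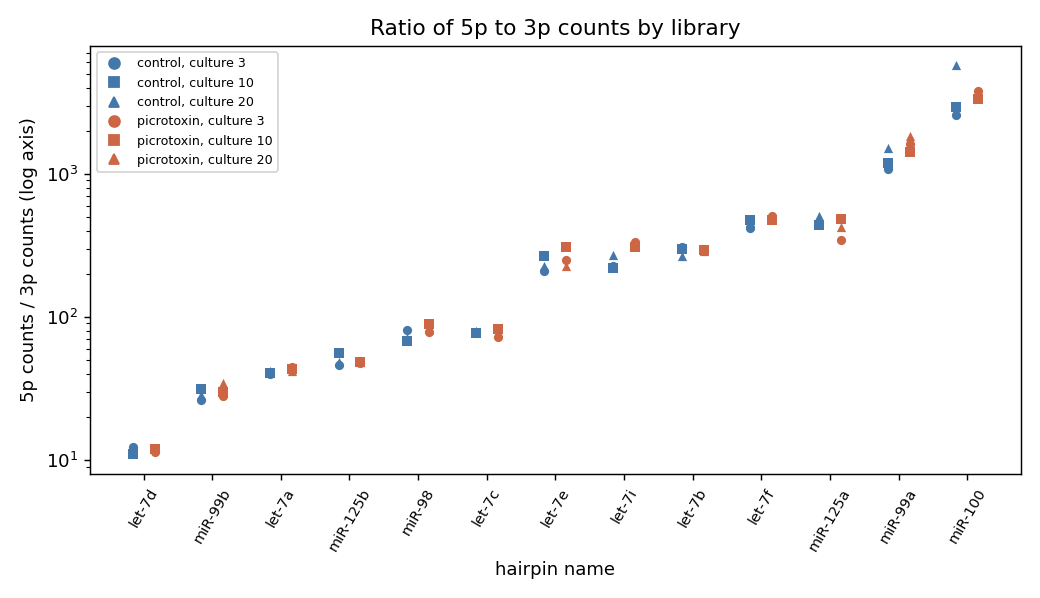
Ratio of 5p to 3p counts for each of the 13 hairpin names in the 6 libraries, on a log axis, ordered by the mean of the controls; blue marks control and red picrotoxin, with 1 symbol per culture. let-7i is the name whose picrotoxin points (307 to 332) all lie above its control points (220 to 269). The let-7a and let-7c ratios share the reads of the identical 3p rows.

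The polyA libraries of the same preparations were used to look at genes known to control these microRNAs or to be controlled by them. Of 51 such genes, all were found in the table, 39 were expressed highly enough to test and 12 were not. One gene rose: Hmga1, a chromatin protein of the family of the classic let-7 target Hmga2. Values are counts scaled per library, and fold changes are on the log2(value + 1) scale. Of the 39 genes 1 was called higher and 0 lower at an adjusted p under 0.05 (limma), beside 1.67% and 1.62% of all 12046 genes tested. With culture as a block, 4 were higher and 7 lower, beside 9.65% and 10.4% of all genes. The median log2 fold change over the 39 was -0.11, and over all genes -0.01. The share of all genes whose arms did not overlap was not determined. Lack of overlap in a message below is therefore description only.

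The regulators of let-7 came first. Lin28a, which blocks let-7 processing, was at 0 in all 6 libraries. Its relative Lin28b was at 6.81, 8.99 and 5.30 in control cultures 3, 10 and 20 and at 2.92, 5.22 and 6.28 with picrotoxin, a few fragments per library, with overlap (log2 fold change -0.49, adjusted p = 0.585 in limma). Trim71, a ubiquitin ligase of stem cells that is itself a let-7 target, was at 1.95 to 3.60 in controls and at 0 to 5.22 with picrotoxin, too low to test.

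Of the 10 regulators 8 were tested and 0 passed, with or without the block. The most abundant per length were Hnrnpa1, an RNA-binding protein that inhibits let-7a processing, at 164 FPKM in controls, and Syncrip, an RNA-binding protein, at 44.1 FPKM (authors' group values). Hnrnpa1 was at 2310 ± 102 scaled counts in controls and 2122 ± 159 with picrotoxin. Syncrip was at 783 ± 16 and 692 ± 49, lower in all 3 cultures without overlap (log2 fold change -0.18, adjusted p = 0.367 in limma).

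Among the let-7 targets, Hmga1 was at 201, 182 and 181 in control cultures 3, 10 and 20 and at 281, 307 and 319 with picrotoxin. All picrotoxin values were above all controls. It rose 1.60-fold (log2 fold change 0.68, SE 0.12, 95% interval 0.42 to 0.94, adjusted p = 0.0164 in limma, and 1.2e-04 with culture as a block). It missed the threshold without control culture 10 (adjusted p = 0.0951), control culture 20 (0.0520) or picrotoxin culture 10 (0.0625), while its log2 fold change was 0.66, 0.66 and 0.67.

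The fetal targets were nearly silent. Hmga2 was at 0 in 5 libraries and at 2.12 in control culture 20. Igf2bp1, an RNA-binding protein of fetal tissue, was at 0 to 0.899 in controls and 0 to 2.09 with picrotoxin. In total 6 of the 28 let-7 targets were too low to test, and of the other 22, 1 was higher and 0 lower. With culture as a block 3 were higher, Hmga1 among them, and 4 lower (Mycn, Nras, Hras and Ccnd2). In that fit Nras, a signalling GTPase, fell from 494 ± 11 in controls to 412 ± 29 with picrotoxin (adjusted p = 0.0292).

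Mycn, a growth-promoting transcription factor, had the largest downward difference of the tested targets. It was at 153, 180 and 141 in control cultures 3, 10 and 20 and at 73.9, 131 and 77.4 with picrotoxin. It was lower in every culture and the arms did not overlap, but it did not pass without the block (log2 fold change -0.78, adjusted p = 0.0912 in limma). It passed without picrotoxin culture 10 (log2 fold change -1.04, adjusted p = 0.0359 in limma), and with culture as a block it fell (adjusted p = 4.8e-04).

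Of the 10 miR-125 targets, 6 were tested and 0 passed, with a median log2 fold change of -0.29. Dlg4, the postsynaptic scaffold PSD-95, was at 8653, 8788 and 9341 in control cultures 3, 10 and 20 and at 7722, 8049 and 7734 with picrotoxin. Grin2a was at 768, 686 and 794 in controls and at 626, 464 and 627 with picrotoxin. Both were lower in all 3 cultures with no overlap between the arms, and both missed the threshold in limma (adjusted p = 0.183 and 0.143) and passed it with culture as a block (0.0336 and 0.00104). With the block 1 of the 6 was higher and 2 were lower, Dlg4 and Grin2a.

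Of the 8 miR-99 and miR-100 targets, 6 were tested and 0 passed. The most abundant per length were the kinase Akt1, at 69.4 FPKM in controls, and Smarca5, a chromatin remodeler, at 31.3 FPKM. Akt1 was at 1297 ± 118 scaled counts in controls and 1124 ± 78 with picrotoxin (adjusted p = 0.324 in limma, and 0.0314 with culture as a block). Its arms did not overlap, by a margin of 1218 in control culture 3 against 1214 in picrotoxin culture 20. Smarca5 was at 1638 ± 34 and 1552 ± 85, and Mtor at 1647 ± 155 and 1566 ± 283, both overlapping. The marker lists moved too: of the 5 neuronal messages Tubb3 fell from 8286 ± 674 to 5728 ± 501 (adjusted p = 0.0164 in limma). Of 3 excitatory messages Slc17a6, a vesicular glutamate transporter, rose from 787 ± 43 to 1232 ± 207 (adjusted p = 0.0268 in limma). The other excitatory messages, Slc17a7 and Neurod6, went the other way, lower without overlap between the arms (log2 fold change -0.25 and -0.79). Both missed the threshold in limma (adjusted p = 0.137 and 0.158) and passed it with culture as a block (0.00955 and 0.00320). With culture as a block, 4 of 5 tested astrocyte messages were lower, and 3 of 5 neuronal messages (Tubb3, Rbfox3 and Syt1). Of 3 inhibitory messages the GABA-synthesizing enzymes Gad1 and Gad2 were higher in that fit (adjusted p = 0.00170 and 4.7e-04 in limma). The third, Slc32a1, was nearly unchanged (log2 fold change 0.0006, adjusted p = 0.997 in limma with the block). Among all genes, 9.65% were higher and 10.4% lower with the block. The part of these markers in the values above was not tested.

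**Figure D5:**
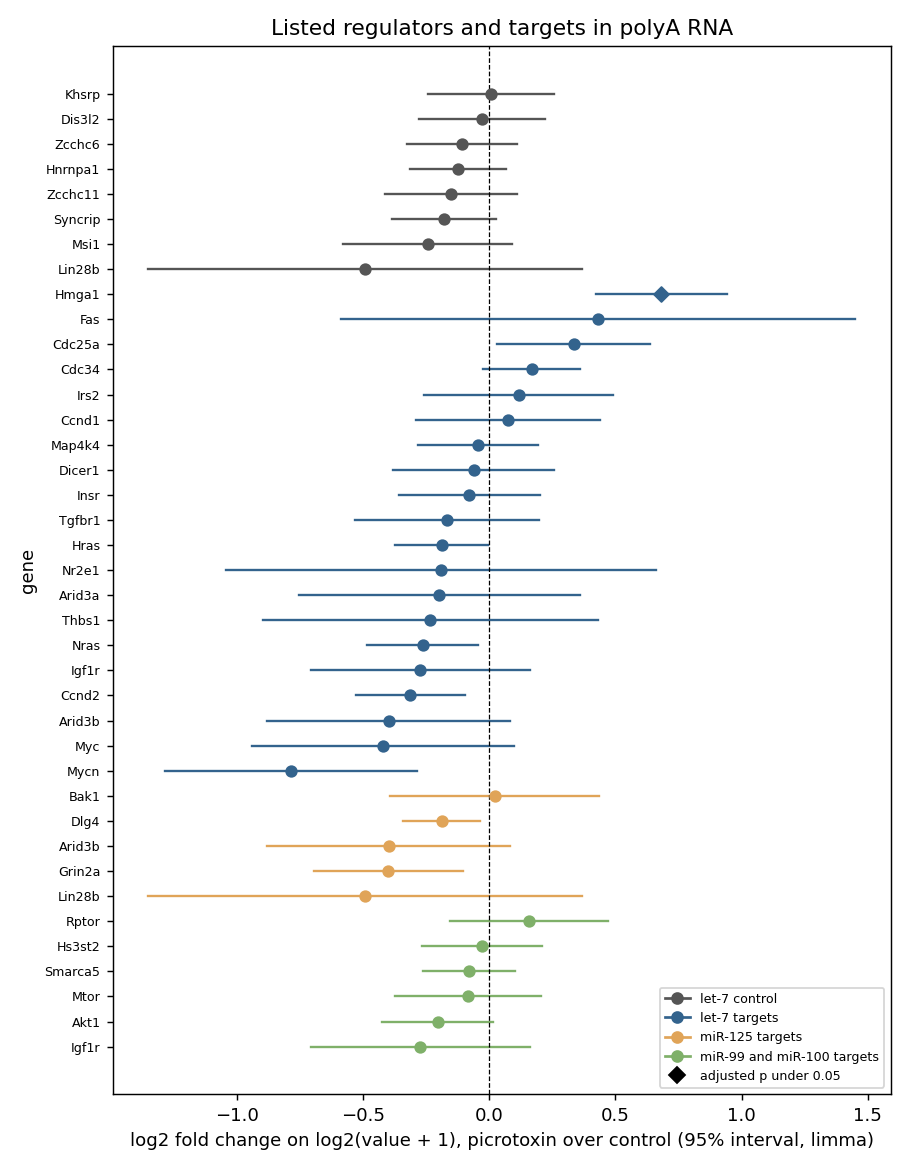
Log2 fold change (picrotoxin over control, on log2(value + 1)) of the tested regulators and targets that are reported here, in polyA RNA with 95% intervals from limma, colored by list; a gene in more than 1 list appears in each. Hmga1 (0.68, the diamond) is the gene past the adjusted threshold, and Mycn (-0.78) lies farthest to the left.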

How the data were processed

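Raw small RNA counts per mature microRNA were taken as the authors deposited them, and their counting tool is not given in the sources here. The submitters' processing notes list, for the polyA libraries, bedtools 2.22.1, Cuffnorm, Cuffdiff, Cufflinks 2.2.1 and STAR 2.3.1z12, and no build. In the deposited polyA table each value is a signal: a fragment count divided by a factor common to its library. The authors' FPKM per group served as filter. A table of normalized values had been assumed, and limma was used for it.

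All 548 microRNAs, absent rows counted as 0, passed through filterByExpr and TMM scaling and were fitted with edgeR 4.0.16 (quasi-likelihood, robust) in R 4.3.3, which left 437. Genes with an FPKM of 1 or more in a group, 12046 in all, were tested with limma 3.58.1 (trend, robust) on log2(value + 1). Tests were two-sided, adjusted by Benjamini-Hochberg over all features, with a threshold of 0.05. Only listed genes are printed. Both tests were tried on simulated data first.

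Culture numbers were taken to pair the libraries, since their deviations from the mean of each arm correlated within numbers (0.33, 0.101 and 0.34 for small RNA, and 0.41, 0.39 and 0.55 for polyA RNA). Each control library correlated best with the picrotoxin library of its own number, and the reverse was not checked. What the numbers mark is not given. No library pair held equal values.

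The members and lists were chosen with earlier results of these data known. Values in every library are given for the 2 most abundant members of each seed group, members with a p under 0.05 and the 2 most abundant 3p strands; messages named are Lin28a, Lin28b, Hmga2, Igf2bp1, Trim71 and called genes, or the 2 most abundant per length of a list. Mycn, Nras, Hras, Ccnd2, Mtor and let-7f-1-3p were named after their values were seen. Some listed genes are counted but not reported by name here. Alternatives were the block, DESeq2 1.42.0 and its size factors, limma voom, library totals, other filters and pseudocounts, quantile scaling and the omission of each library. The authors' table of UTR lengths was not used.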

Additional observations from a re-analysis of the deposited data

How the results depend on the processing

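Under 16 alternatives, 17 of the 29 tested members kept the sign of their log2 fold change, and 0 passed the adjusted threshold under any planned one. With replicate block and library totals only, an alternative added after seeing the data, 1 member passed: let-7i-3p (log2 fold change -0.38, adjusted p = 0.0203). In that fit the median log2 fold change of all microRNAs was -0.08, and 4.81% of them were called lower. Its log2 fold change lay between -0.39 and -0.27 and its adjusted p between 0.0203 and 0.678 over all alternatives. For let-7d-5p the log2 fold change lay between 0.11 and 0.27. Dropping 1 of the identical rows, also added later, called 0 members. As a share of TMM-scaled library size, the members took 21.8% in controls, and let-7 and miR-98 10.0%. The share with picrotoxin on that scale is not given here, so the arms were not compared on it. The shares given earlier for both arms are of raw counts. The TMM factors they leave out ran from 0.942 to 1.14 in controls and from 0.927 to 1.02 with picrotoxin. The listed genes depended on the pairing: with the replicate block 4 were higher and 7 lower. Without single libraries the counts were 0 to 1 higher and 0 to 2 lower. With TMM scaling, the block changed no call among the members. Rare 3p strands are limited by counts: the interval of let-7f-1-3p spanned -0.84 to 0.13. Of 51 listed genes, 12 were under the FPKM filter in both arms and were not tested.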

Other observations

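The cluster on chromosome 1 holds 1 hairpin of each family within 679 bases, and in GRCr8 none of its mature strands is made from another gene. let-7e-5p is 1 base away from let-7a-5p (U9G), so the split of reads between them is uncertain. Among its 5p counts, miR-125a-5p took 45.9% ± 1.20 in controls and 44.7% ± 1.28 with picrotoxin, miR-99b-5p 34.2% ± 0.36 and 34.1% ± 1.42, and let-7e-5p 19.9% ± 0.84 and 21.2% ± 0.59 (SD, n = 3). Among its 3p counts the order differed: miR-99b-3p took 86.6% ± 0.69 in controls and 85.2% ± 2.24 with picrotoxin, while let-7e-3p and miR-125a-3p together made up the rest. The arms overlapped for each strand, and no test was made of these shares.

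Of the 7 genes that the reference places around members, Huwe1, the ubiquitin ligase gene that holds let-7f-2 and miR-98, was found in the gene table. It was at 6108, 6520 and 8248 scaled counts in control cultures 3, 10 and 20 and at 5524, 5068 and 7876 with picrotoxin, lower in each culture, with overlap between the arms (log2 fold change -0.19, adjusted p = 0.625 in limma, and 0.0464 with culture as a block). miR-98-5p, which lies within the bounds of Huwe1, had a log2 fold change of 0.10 (adjusted p = 0.744 in edgeR). Whether it is transcribed with Huwe1 was not tested. Huwe1 was looked up after the members' values were seen.

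Among listed genes below the filter, 2 did not overlap between the arms. The share without overlap among all genes was not determined, so their values are given as description only. Bmf, a pro-apoptotic protein, was at 7.79, 3.60 and 4.24 in control cultures 3, 10 and 20 and at 12.6, 10.4 and 15.7 with picrotoxin. Igf2bp2, an RNA-binding protein and let-7 target, was at 20.4, 23.4 and 17.0 in controls and at 26.2, 34.5 and 30.3 with picrotoxin. Both were named after their values were seen and have no test.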
